A study of Mus musculus with 16 samples.

Results

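Bone morphogenetic protein (BMP) genes were followed in the aortic valves of 15 mice, as 10 genes taken by symbol from the deposited table, where they are spelled BMP2, BMP4, BMP6, BMP7, BMPR1A, BMPR2, SMAD6, SMAD7, ID1 and GREM1. They are the ligands Bmp2, Bmp4, Bmp6 and Bmp7, the receptors Bmpr1a and Bmpr2, the inhibitory Smads Smad6 and Smad7, the BMP target Id1 and the antagonist Grem1. All 10 had a row among the 20992 rows of the table. The mice, on a C57BL/6J background, formed 4 groups: controls (CON, 4 libraries), a hypertension model carrying transgenes for human renin and human angiotensinogen (HT, 4), a hypercholesterolaemia model lacking ApoE (HC, 4) and mice with the transgenes and without ApoE (HC/HT, 3). HC/HT was planned with 4 mice, and 1 of them was not analysed here. The ages and the promoters that drive the transgenes are not given in the sources used here. Females numbered 1 of 4 in CON, 2 of 4 in HT, 3 of 4 in HC and 2 of 3 in HC/HT, and sex was a term in the model.

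BMP ligands are secreted proteins that join a type I receptor such as Bmpr1a to the type II receptor Bmpr2. The receptors phosphorylate Smad1, Smad5 and Smad9, which enter the nucleus with Smad4 and switch on Id genes. Smad6 and Smad7 are switched on by the same signal and hold it back, and secreted antagonists such as gremlin (Grem1) and noggin bind the ligands outside the cell. In the aortic valve the pathway is known from cushion formation in the embryo and from calcification in disease.

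Values are given in units: the authors' normalised counts, scaled so that the median library sums to 1000000 and then divided by a factor for each library. The factors were needed because the deposited totals are equal while 4 rows, among them the ribosomal RNA precursor Rn45s, took from 32.4% to 62.7% of them. The factors, medians of ratios over genes, ran from 0.626 to 1.32. Apoe was at 9.47 units or less in the 7 knockout libraries and at 85.8 or more in the 8 others, as labelled. Markers of endothelial cells (Pecam1 from 258 to 814 units) and of interstitial cells (Dcn from 1882 to 4970) were present in every library. No marker was at 0 in all libraries. Smooth muscle, heart muscle and macrophage markers differed widely between libraries: the 12 heart muscle markers summed to between 176 and 19398 units, highest in HT replicate 2. In whole valves, fewer cells of a type and less RNA per cell cannot be told apart.

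Of the 10 genes, 8 passed the filter on low values (at least 1 unit in at least 4 libraries), and none of the 8 was called in any of 8 comparisons by limma at an adjusted p under 0.05. The comparisons were each model against CON, HC/HT against each single model, the interaction, all ApoE knockout against all ApoE intact libraries, and all transgenic against all other libraries. Over the 15004 genes tested, the share called against CON was 0.207% for HC, 0% for HT and 0.74% for HC/HT. The shares were 0% in HC/HT against HC, 0.247% in HC/HT against HT, 0% for the interaction, 1.46% for ApoE knockout and 0.00666% for the transgenes. At an unadjusted p under 0.05, against CON, the members numbered 1 of 8 for HC (5.73% of all genes), 0 for HT (4.93%) and 2 for HC/HT (13.4%). They numbered 1 for HC/HT against HC (5.57%), 2 for HC/HT against HT (10.9%), 0 for the interaction (1.99%), 3 for ApoE knockout (13.2%) and 2 for the transgenes (9.14%).

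Read per kilobase of exon, so that genes of unlike length can be set side by side, the receptors and Id1 stood highest and the antagonist lowest. The mean over the 15 libraries was 39.7 ± 7.81 units per kb (SD) for Bmpr2, 30.4 ± 12.3 for Id1, 24.8 ± 6.00 for Bmpr1a and 21.9 ± 6.18 for Bmp4. Bmp2 followed at 9.98 ± 12.7, Smad6 at 6.85 ± 1.99, Bmp6 at 5.74 ± 1.51 and Smad7 at 5.06 ± 1.94 units per kb. Bmp7 (0.179) and Grem1 (0.0258) stood far below these. Neighbours in this order overlapped: Bmpr2 exceeded Id1 in 11 of 15 libraries, Id1 exceeded Bmpr1a in 10, and Bmpr1a exceeded Bmp4 in 11. Smad6 exceeded Bmp6 in 11 libraries and Bmp6 exceeded Smad7 in 10. Bmp4 exceeded Bmp2 in 13. Bmp2 exceeded Smad6 in only 5 of 15 although its mean was higher. Smad7 exceeded Bmp7 in 15 of 15.

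**Figure D1:**
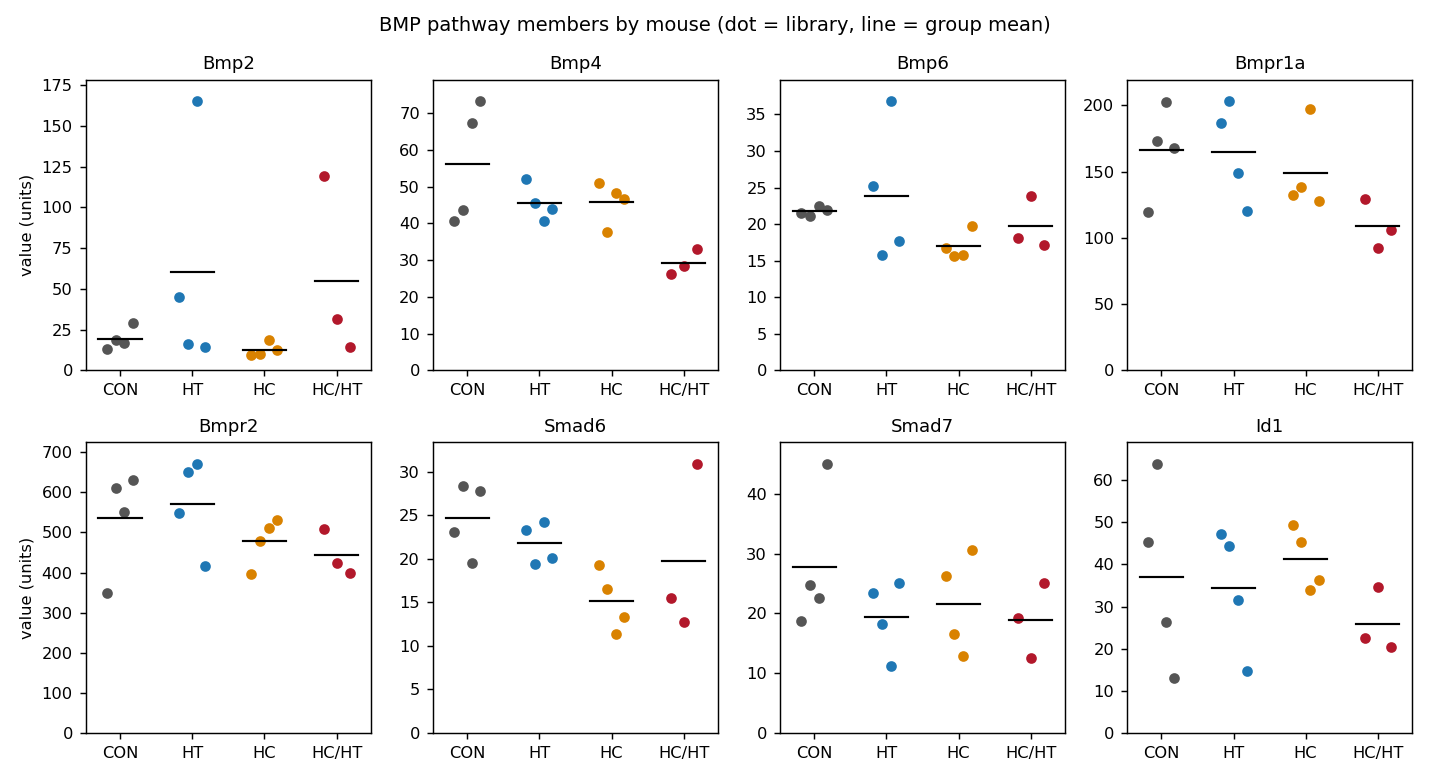
Value in units (vertical axes, each from 0) of the 8 tested members in CON, HT, HC and HC/HT valves, with a dot per library and a line at each group mean. Bmp4 was between 26.1 and 33.0 units in HC/HT and between 37.7 and 73.3 in all other libraries, and Bmp2 was above 100 units in only 1 HT and 1 HC/HT library.

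Among the ligands, Bmp4, a ligand that endothelium and mesenchyme of the heart can make, came nearest to a call. Its gene lies on chromosome 14 from 46383520 to 46390669 of GRCm38 (mm10), minus strand. Bmp4 was at 40.8, 43.8, 67.5 and 73.3 units in CON, at 52.1, 45.7, 40.7 and 44.0 in HT, and at 50.9, 37.7, 48.3 and 46.7 in HC. It was at 26.1, 28.3 and 33.0 units in HC/HT. The 3 HC/HT libraries lay below all 12 others, a pattern that 0.52% of all genes showed, while 6.44% lay below CON alone. On the deposited scaling they still lay below CON (up to 30.3 against at least 52.9) but overlapped HT, which reached down to 26.8. The group means were 56.3 ± 16.5 in CON (SD, n = 4) and 29.1 ± 3.53 in HC/HT (n = 3). The log2 difference was -0.93 ± 0.24 (SE), with a 95% interval from -1.43 to -0.43, an unadjusted p of 0.000991 and an adjusted p of 0.0737. Against HC it was -0.63 ± 0.23 (adjusted p 0.846) and against HT -0.65 ± 0.23 (adjusted p 0.305), also without overlap, which 3.35% and 4.15% of all genes showed in that direction. Against CON, neither HT (-0.28) nor HC (-0.30) passed, and the interaction was -0.34 (adjusted p 1). The ApoE knockout difference of Bmp4 was -0.47 ± 0.17 (limma, unadjusted p 0.01, adjusted p 0.188). For the transgenes it was -0.46 ± 0.16 (unadjusted p 0.00894, adjusted p 0.38). Both sets overlapped their counterparts, and both hold the 3 HC/HT libraries. The 12 interstitial markers had a median difference of -0.45 in HC/HT against CON, with 11 of 12 negative and 0 called. Their median in HC/HT was -0.61 against HC (12 of 12 negative) and -0.33 against HT (11 of 12 negative), again with 0 called. In HC/HT against CON the 12 endothelial markers had a median of 0.03, the 10 smooth muscle markers -2.22 and the 12 heart muscle markers -2.27. The part of these cells in the Bmp4 values was not tested.

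The sequence before the start of Bmp4 is shown together with that of Smad6, the member with the smallest unadjusted p in HC against CON (0.0199, adjusted p 0.696), because both genes are set in this pathway and can be read for the letters that Smads bind. The letters are those of RefSeq (GRCm38.p6), minus strand, at chr14:46390670-46390919 and chr9:64022060-64022309. Capitals mark GTCT or its reverse complement AGAC, the Smad box, and GGCGCC, the GC-rich element of BMP Smads.
Bmp4: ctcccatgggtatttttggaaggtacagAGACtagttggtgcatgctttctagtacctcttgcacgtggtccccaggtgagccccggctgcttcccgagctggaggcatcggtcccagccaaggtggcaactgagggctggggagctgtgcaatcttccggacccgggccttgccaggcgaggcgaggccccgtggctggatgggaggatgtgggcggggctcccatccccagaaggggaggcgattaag
Smad6: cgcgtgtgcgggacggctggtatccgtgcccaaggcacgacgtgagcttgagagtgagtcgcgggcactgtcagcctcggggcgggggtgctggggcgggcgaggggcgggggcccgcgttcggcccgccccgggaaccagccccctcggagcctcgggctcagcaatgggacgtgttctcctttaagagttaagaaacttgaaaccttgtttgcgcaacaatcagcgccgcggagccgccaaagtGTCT
Each held 1 Smad box and no GGCGCC. Promoter sequences were found for 6 of the 10 genes, of which 4 held a Smad box and 3 held GGCGCC in the 250 bases before the start. Among 32851 promoters of that length, 82.9% held a Smad box on either strand and 9.59% held GGCGCC. A match describes the letters only.

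Bmp2, the ligand best known for driving bone programmes in valve cells, varied most among the tested members and did so within groups. It was at 13.0, 18.2, 16.5 and 28.8 units in CON, and at 45.1, 16.3, 165 and 14.3 in HT. It was at 9.55, 10.2, 18.3 and 12.1 in HC and at 119, 31.4 and 14.0 in HC/HT. HT replicate 3 and HC/HT replicate 1 were far above the rest, HT replicate 1 and HC/HT replicate 2 came next, and the other 3 transgenic libraries lay inside the CON range. The mean of the 7 transgenic libraries was 57.9 units and that of the 8 others 15.8. The log2 difference was 1.32 ± 0.53 (95% interval from 0.17 to 2.47), with an unadjusted p of 0.028 and an adjusted p of 0.473. Against CON, the difference was 1.14 for HT (interval from -0.45 to 2.73), 1.30 for HC/HT (-0.46 to 3.06) and -0.20 for HC (-1.88 to 1.47). Among the tested members these intervals are the widest, and differences inside them were not resolved. Without single libraries the HT value ran from 0.37 to 1.85 and the HC/HT value from 0.37 to 1.82, lowest without HT replicate 3 and without HC/HT replicate 1.

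By rank over the 15 libraries, the genes most like Bmp2 were Rasgrp3, an activator of Ras proteins (Spearman rho 0.87), Prx, which encodes periaxin (0.84), and Itgb8, an integrin that activates TGF-beta (0.81). Rasgrp3 was at 87.4 units in HT replicate 3 and 80.5 in HC/HT replicate 1, and at 78.7 in CON replicate 4, where Bmp2 was highest among CON. Prx was at 10.5 and 11.2 units in the 2 libraries with most Bmp2, and at 5.01 or less in all others. HT replicate 3 also had the highest sum of the 12 endothelial markers (1428 units, other libraries from 718 to 1131), the lowest macrophage sum (260 units) and the second lowest correlation with the other libraries. HC/HT replicate 1 had an endothelial sum of 1049. The part of cell content in the Bmp2 values was not tested.

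**Figure D2:**
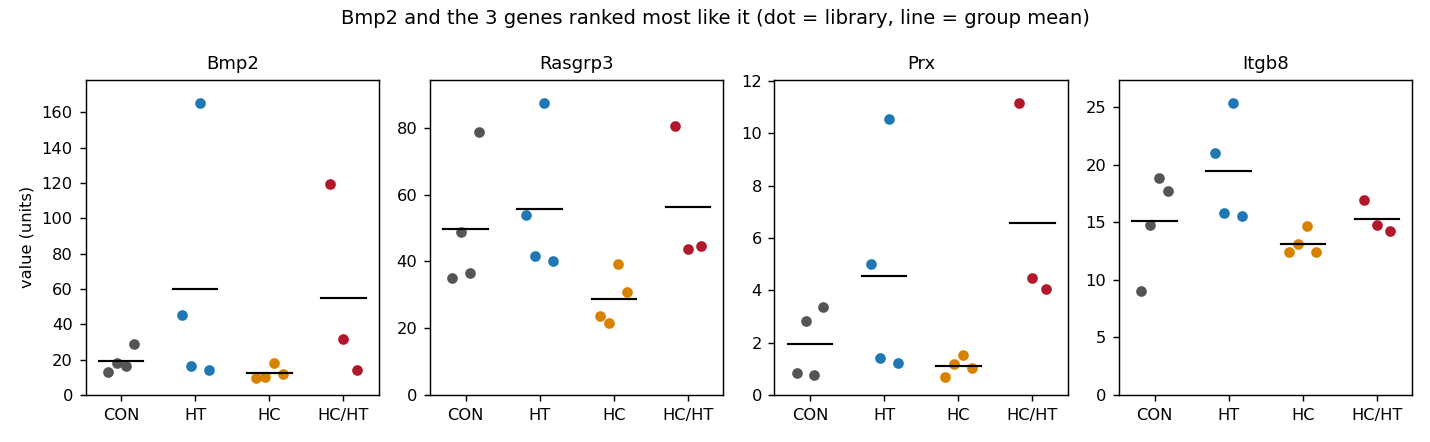
Value in units (vertical axes, each from 0) of Bmp2 and of the 3 genes with the highest rank correlation with it over 15 libraries, with a dot per library and a line at each group mean. HT replicate 3 and HC/HT replicate 1 stand apart in Bmp2 (165 and 119 units) and in Prx (10.5 and 11.2 units), while Rasgrp3 is also high in CON replicate 4 (78.7 units).

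Bmp6, a ligand that vascular endothelium secretes, had close values in control valves. It was at 21.5, 21.1, 22.5 and 21.9 units in CON and at 25.2, 15.8, 36.8 and 17.7 in HT. It was at 16.8, 15.6, 15.8 and 19.7 in HC and at 18.1, 23.8 and 17.1 in HC/HT. All 4 HC libraries lay below all 4 CON libraries, as for 3.05% of all genes, and the highest value of all, in HT replicate 3, came from the library with most Bmp2. The HC difference was -0.32 ± 0.26 (adjusted p 0.999). On the deposited scaling the HC and CON values overlapped, with HC up to 21.8 and CON spread from 17.1 to 27.9. Bmp7, a ligand of kidney and bone development, was scarcely listed and was not tested. It was at 2.04 units in CON replicate 1, 2.45 and 1.5 in HC/HT replicates 2 and 3, and under 1 unit in the other 12 libraries, 3 of them at 0. In deposited normalised counts the first 3 were 27, 23 and 14, and the other libraries had 9 or fewer.

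Of the receptors, Bmpr2, the type II receptor, was at 349, 611, 551 and 632 units in CON, at 548, 651, 671 and 416 in HT, at 397, 479.6, 510.4 and 531 in HC and at 509, 425 and 399 in HC/HT. Its groups overlapped in every comparison, and its 95% intervals against CON ran from -0.68 to 0.35 in HC, -0.40 to 0.58 in HT and -0.81 to 0.28 in HC/HT. Bmpr2 had the smallest relative spread over all libraries among the members, 19.7% of its mean.

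Bmpr1a, the type I receptor, was at 119.8, 174, 203 and 168 units in CON and at 187, 203, 149 and 120.5 in HT. It was at 133, 139, 197 and 128 in HC and at 129, 92.6 and 106 in HC/HT. Of the 3 HC/HT values 2 lay below all CON values, and the third lay above CON replicate 1. The difference from CON was -0.65 ± 0.25 (95% interval from -1.17 to -0.12), with an unadjusted p of 0.018 and an adjusted p of 0.257. It was -0.60 ± 0.24 against HT (adjusted p 0.375) and -0.42 ± 0.24 against HC (adjusted p 0.896). Over both backgrounds, the ApoE knockout libraries had a mean of 132 units and the intact ones 165, a difference of -0.41 ± 0.17 (adjusted p 0.302).

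Smad6, the inhibitory Smad that acts mainly on BMP receptors and is prominent in valve and outflow tract endothelium, had its lowest values in HC and HC/HT. It was at 23.0, 28.3, 19.5 and 27.8 units in CON, at 23.3, 19.4, 24.2 and 20.1 in HT, at 19.2, 16.5, 11.4 and 13.4 in HC and at 15.5, 12.8 and 30.9 in HC/HT. The HC values lay below all CON values by a narrow margin, and HC/HT replicate 3 held the highest value of all 15 libraries. The HC difference was -0.72 ± 0.28 (95% interval from -1.31 to -0.13), with an unadjusted p of 0.0199 and an adjusted p of 0.696. On the deposited scaling HC reached 25.1 and CON reached down to 21.7, so the groups overlapped. With Bmp6, 2 of 8 tested members lay wholly lower in HC than in CON, against that 3.05% of all genes. The ApoE knockout difference was -0.48 ± 0.21 (adjusted p 0.31). In HC against CON the median of the endothelial markers was -0.15, with 9 of 12 negative. Smooth muscle markers had a median of -1.54 (10 of 10 negative), heart muscle markers -1.04 (12 of 12 negative) and macrophage markers 1.11 (11 of 12 positive). Their part in the Smad6 and Bmp6 values was not tested.

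Smad7, which restrains both TGF-beta and BMP receptors, was at 18.8, 24.8, 22.6 and 45.0 units in CON and at 23.4, 18.3, 11.1 and 25.1 in HT. It was at 26.3, 16.5, 12.9 and 30.7 in HC and at 19.2, 12.5 and 25.1 in HC/HT. CON replicate 4 was highest, and all groups overlapped. On the deposited scaling it was less apart, with CON up to 35.3 and HC up to 34.3. The differences from CON were -0.42 in HC, -0.51 in HT and -0.56 in HC/HT, with adjusted p from 0.569 to 0.999.

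Id1, the DNA-binding inhibitor that serves as the usual readout of BMP signalling, spread as widely inside CON as over all groups. It was at 45.2, 63.9, 26.3 and 13.1 units in CON and at 47.3, 44.4, 31.6 and 14.7 in HT. It was at 49.3, 45.4, 34.0 and 36.2 in HC and at 22.6, 34.7 and 20.5 in HC/HT. Its lowest and highest values of all 15 libraries were both in CON. In every group replicates 1 and 2 were above replicates 3 and 4, where HC/HT has no replicate 4 here. The reason was not tested. The 2 libraries with most Bmp2 had Id1 at 31.6 and 22.6 units, inside the CON range. The differences from CON were 0.03 (95% interval from -0.79 to 0.85) in HC, -0.17 (-0.95 to 0.61) in HT and -0.59 (-1.45 to 0.27) in HC/HT. The genes most like Id1 by rank were Psma8, Rpl9 and Rpl35 (rho 0.91, 0.88 and 0.88), the last 2 encoding ribosomal proteins. Rpl9 and Rpl35 were also higher in replicates 1 and 2 than in 3 and 4 of every group. Psma8 was near the floor, at 2.04 units or less in every library and at 0 in CON replicate 4 and HC/HT replicate 1.

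Grem1, the antagonist of Bmp2 and Bmp4, was listed at 0 in 11 of 15 libraries, all 8 ApoE intact ones among them. It was at 0.34 and 0.485 units in HC replicates 2 and 3 and at 0.354 and 0.427 in HC/HT replicates 1 and 3. These were 4, 6, 4 and 4 deposited normalised counts, and no fold is given against groups listed at 0. The depth of the libraries is unknown, so a value of 0 sets no limit on the transcript.

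**Figure D3:**
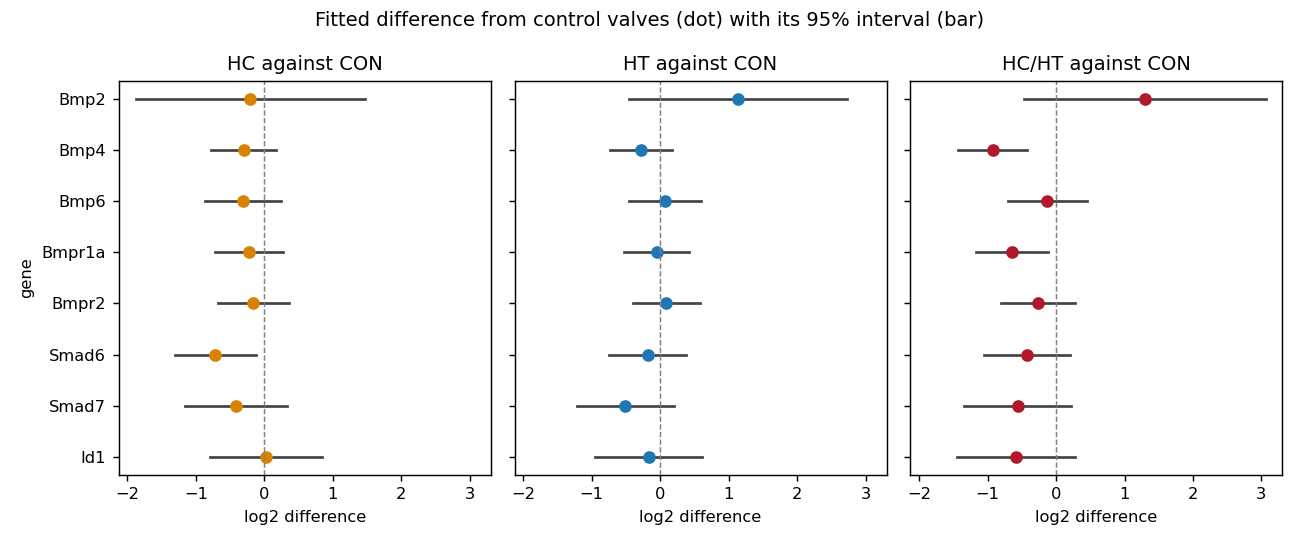
Log2 difference from CON (horizontal axis) of the 8 tested members in HC, HT and HC/HT, with a dot at the fitted value and a bar over its 95% interval. The intervals exclude 0 for Smad6 in HC (-1.31 to -0.13) and for Bmp4 (-1.43 to -0.43) and Bmpr1a (-1.17 to -0.12) in HC/HT, and none of these passed after adjustment over 15004 genes.

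As a group, 7 of the 8 tested members had negative differences in HC against CON (median -0.26), 5 in HT (median -0.11) and 7 in HC/HT (median -0.49), where the medians of all genes were -0.01, -0.01 and -0.02. For ApoE knockout 8 of 8 were negative, with a median of -0.26 against -0.01 over all genes. Under the deposited scaling the median of all genes itself moved to -0.42 in HT, -0.20 in HC/HT and 0.09 for ApoE knockout, and there Bmp6 and Bmpr2 turned negative in HT (both -0.38) and Bmp2 turned positive for ApoE knockout (0.10). The 3 comparisons with CON share the same 4 control libraries.

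The members' nearest genes by rank were a mixed set. For Bmp4 they were Csgalnact1, which starts chondroitin sulphate chains (rho 0.95), Enpp6 (0.83) and Zfp551 (0.82). Csgalnact1 was at 10.4, 15.8 and 15.9 units in HC/HT and at 17.4 or more in all other libraries, a pattern that 0.52% of all genes showed. It was picked for its likeness to Bmp4 over these same libraries, so the shared pattern is no separate result. For Smad6 they were Mrps25 (0.92), Ago1 (0.88) and the BMP co-receptor Rgma (0.87). They were Prkca, Larp1 and Atxn1 for Bmp6 (0.76 to 0.82), Arhgap29, Usp9x and Eif4g2 for Bmpr1a (0.88 to 0.92), Mid2, Usp32 and Mpp5 for Bmpr2 (0.84 to 0.88), and Dyrk2, Wsb1 and Zfp709 for Smad7 (0.81 to 0.82). These correlations run over libraries that share group and cell content and are descriptions.

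Beyond the members, a list of 59 further genes of the pathway was followed, of which 48 were tested. None was called in the comparisons between single groups. At an unadjusted p under 0.05, 5 were lower and 0 higher in HC against CON, 4 and 0 in HT, and 9 and 3 in HC/HT. In all genes these shares were 2.29% lower and 3.45% higher in HC, 2.49% and 2.45% in HT, and 7.09% and 6.28% in HC/HT. The list's median difference was -0.09 in HC, -0.08 in HT and -0.21 in HC/HT. Over both backgrounds, 2 of the 48 fell in ApoE knockout and 0 rose, where 0.347% of all genes fell and 1.11% rose.

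Those that fell in ApoE knockout were Bmp3 and Chrdl1. Bmp3, a ligand that counters other BMPs, was at 6.79, 6.31, 8.04 and 3.13 units in CON, at 4.55, 8.92, 3.12 and 4.16 in HT, at 0.376, 7.39, 0.566 and 0.793 in HC and at 0, 0 and 1.39 in HC/HT. All knockout libraries but HC replicate 2 lay below all intact ones. HC replicate 2 was the only HC male, but the HC/HT male, replicate 1, had Bmp3 at 0. The smooth muscle markers summed to 622 units in HC replicate 2 and to 175, 165 and 132 in HC replicates 1, 3 and 4. The knockout mean was 1.5 ± 2.64 units (SD, n = 7) and the intact mean 5.63 ± 2.21 (n = 8), with a log2 difference of -1.76 ± 0.40 (SE) and an adjusted p of 0.0299 by limma. Without HC replicate 2 it was -2.35. Chrdl1, chordin-like 1, which binds BMP4 outside the cell, was at 13.1, 28.9, 23.6 and 31.1 units in CON, 49.2, 46.1, 27.6 and 20.2 in HT, 9.55, 18.6, 18.4 and 11.0 in HC, and 17.6, 5.74 and 9.40 in HC/HT. The knockout mean was 12.9 ± 5.22 units and the intact mean 30.0 ± 12.3, a difference of -1.19 ± 0.29 (adjusted p 0.0425), with overlap only through CON replicate 1. Both calls depend on single libraries and on the processing. Adjusted p for Bmp3 passed 0.05 when CON replicate 1, 2 or 3, HT replicate 2, HC replicate 3 or 4, or HC/HT replicate 1 or 2 was left out (0.0533 to 0.159). For Chrdl1 it did so when CON replicate 2, 3 or 4, HT replicate 1 or 2, any of the HC replicates, or HC/HT replicate 2 or 3 was left out (0.0536 to 0.2). In the comparison of knockout with intact libraries, 12 of 12 macrophage markers were positive (median 1.14, 4 called), 10 of 10 smooth muscle markers were negative (-1.68, 1 called) and 12 of 12 heart muscle markers were negative (-1.87, 0 called). The Chrdl1 call was also lost with the deposited scaling (adjusted p 0.0981), with a block for replicate number (0.0807) and with no filter on low values (0.083), and that of Bmp3 with a pseudocount of 4 (0.0571) and with no filter (0.0646). The part of these markers in the values of Bmp3 and Chrdl1 was not tested. In the names of the deposited columns, the leading numbers are all lower in knockout than in intact libraries. What these numbers stand for is not stated, and an effect that follows them cannot be told apart from the loss of ApoE.

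**Figure D4:**
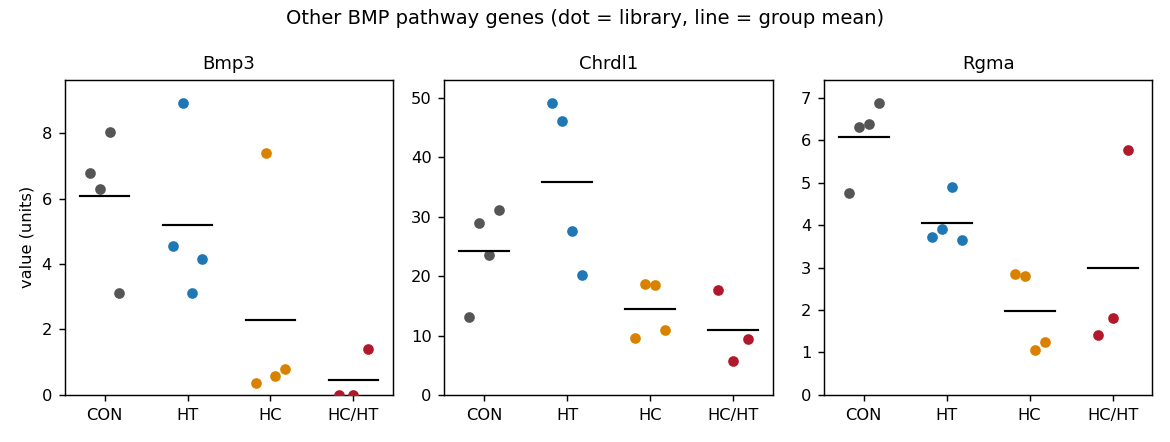
Value in units (vertical axes, each from 0) of Bmp3, Chrdl1 and Rgma in the 4 groups, with a dot per library and a line at each group mean. Bmp3 is at 1.39 units or less in 6 of 7 knockout libraries. Rgma is lower in all 4 HC libraries (at most 2.86 units) than in all 4 CON libraries (at least 4.76 units), as for 3.05% of all genes. HC/HT replicate 3, also a knockout, has Rgma at 5.77 units, inside the CON range.

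The other pathway genes with the smallest p against CON did not pass. Rgma, a BMP co-receptor, averaged 6.08 ± 0.919 units in CON against 1.99 ± 0.974 in HC (-1.31, adjusted p 0.352), and Smad1, a signal-carrying Smad, 38.0 ± 6.64 against 26.4 ± 5.11 (-0.59, adjusted p 0.704). Hey1, a transcriptional repressor answering to Notch and BMP, was at 19.9 ± 8.79 units in CON and 9.64 ± 5.01 in HT (-1.18, adjusted p 0.96). Gdf10, a relative of Bmp3, was at 11.4 ± 4.36 in CON and 7.23 ± 4.44 in HT (-0.88, adjusted p 0.96). Twsg1, an extracellular modulator of BMP binding, was at 302 ± 56.7 units in CON and at 182.9, 183.3 and 184.7 in HC/HT (-0.81, adjusted p 0.0878 by limma). These did not overlap, as for 6.44% of all genes in that direction. Twsg1 was also lower on average in HC (237 ± 21.0 units, -0.47) and in HT (240 ± 56.5 units, -0.41), and both overlapped CON. Bglap, osteocalcin, was under 3 units in every library (HT -0.90, adjusted p 0.96, and HC/HT -1.17, adjusted p 0.166). Its near-identical copies make its count uncertain. Noggin (Nog), at a mean of 0.046 units, was not tested.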

How the data were processed

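RNA of aortic valves was sequenced in 1 library per sample. Per the labels' protocols, cDNA was amplified from 1 ng of RNA with the Nugen Ovation RNA-Seq System v2, so reads from a few molecules can be multiplied. Per the submitters' processing notes, the tools were edgeR, Bowtie 1.0.1, SAMtools 0.1.9 and FastQC 0.11.2, with mm10. How the counts were normalised is not stated there. The values deposited by the authors are a score: normalised counts rounded to whole numbers, with totals from 10207928 to 10210305 in each library, so depth is unknown. 1 column without a name was not used.

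Values were multiplied by 0.0979537 and divided by median-of-ratios factors over 13434 genes. With a pseudocount of 1 added, log2 values entered limma 3.58.1 (R 4.3.3, robust, with trend), with group and sex as terms, over 15 libraries. The pseudocount shrinks the differences of low genes. P-values are two-sided, Benjamini-Hochberg adjusted over 15004 genes, and called under 0.05. Labels do not say whether mice shared litters. The fit was tested on simulated data. Exon lengths and positions are from GENCODE M21.

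Members and lists were chosen with earlier results of these data known. Other pathway genes named are those called and the 3 with the smallest p in each model against CON. Likeness was ranked for members of at least 10 units. Alternatives covered scaling, pseudocount, filter, sex term, replicate number, array weights, groups fitted and each library left out.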

Additional observations from a re-analysis of the deposited data

Results flagged for a closer look

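Within groups of 4, a single library stood apart from the other 3 in 2 of 28 gene and group pairs examined, where chance alone flags about 1 in 20. In CON, Bmp7 was at 2.04 units in replicate 1 and at 0.25 units or less in the others. In HC, Bmpr1a was at 197 units in replicate 3 and at 139 or less in the others. The interaction test called 0 members (limma, adjusted p 1 for each).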

How the results depend on the processing

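No member passed the threshold in any comparison under any of the 167 combinations of comparison and alternative run, omissions of single libraries among them. Of 32 member differences followed, 26 kept their sign throughout, and 6, between -0.20 and 0.09, turned in 19 of 627 recalculations without being called. Those followed were all differences from CON and, from the other comparisons, only those with an unadjusted p under 0.05 by limma. That choice favours a kept sign. Some not followed did turn with the deposited scaling, such as Bmp6 for the transgenes (0.13 to -0.19) and Smad7 in HC/HT against HT (-0.05 to 0.20). With that scaling the median of all genes was itself at -0.30 for the transgenes and at 0.21 in HC/HT against HT. Bmp4 in HC/HT against CON ranged from -1.16 to -0.80, with adjusted p from 0.0603 to 0.277. In HC against CON, Id1 turned to -0.17 with limma array weights. Without 1 library each it ranged from -0.38 to 0.35, with -0.0017, -0.28 and -0.0025 among the values, and Bmp2 ranged from -0.41 to 0.29, with 0.13 among them. In HT against CON, Bmp6 and Bmpr2 turned to -0.38 with the deposited scaling, where the median of all genes was -0.42. They turned to -0.066 and -0.15 without the 3 libraries that correlate least with the others, an alternative chosen after seeing the data. Omitting 1 library gave -0.21 to 0.23 for Bmp6, -0.087 (and -0.033) to 0.26 for Bmpr2, -0.50 to 0.14 for Id1 (0.037 and 0.10 among them) and -0.18 to 0.10 for Bmpr1a (0.060 among them). The cause was not tested.

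Bmp3 and Chrdl1 kept their ApoE knockout calls in 14 and 10 of 25 alternatives. Bmp3 lost it with a pseudocount of 4 (-0.87, adjusted p 0.0571) and no filter (0.0646), and Chrdl1 with the deposited scaling (0.0981), no filter (0.083) and the replicate block (-1.21, 0.0807). Without the 3 libraries that correlate least both were lost (0.232 and 0.294). With a pseudocount of 0.25 Bmp3 was at -2.69.

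The number of all genes called, the background of these counts, moved more. It was 31 for HC against CON, with a range from 6 to 152 over all alternatives, 111 for HC/HT against CON (13 to 312), 37 for HC/HT against HT (6 to 96), 219 for ApoE knockout (57 to 483), 1 for the transgenes (0 to 18) and 0 for HC/HT against HC (0 to 2), and it stayed at 0 in HT against CON and in the interaction. Same-numbered libraries of different groups had correlated deviations from -0.11 to 0.27 (median 0.084, 10 of 21 over 0.1), and other pairs a median of -0.071 (17 of 63 over 0.1). Not every same-numbered pair was over 0.1, and 4 of 15 libraries correlated best with one of their own number, so the numbers were not used as pairs. Among pairs of unlike number, replicates 1 and 2 mostly went together, and so did 3 and 4. Examples are CON replicate 2 with HT replicate 1 (0.30) and HT replicate 4 with HC/HT replicate 3 (0.38). Pairs between these sets were mostly negative, down to -0.27, with exceptions such as HT replicate 3 with HC/HT replicate 1 (0.21). The median of -0.071 joins both kinds, and what the sets share was not tested. With the replicate block 0 members were called, and all genes called numbered 30 for HC and 101 for HC/HT against CON, 55 for HC/HT against HT and 253 for ApoE knockout.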

Other observations

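Downstream of the pathway, transcription factors and enzymes of bone and cartilage programmes did not pass in any model against CON. Runx2, the master regulator of bone cells, averaged 8.68 ± 3.35 units (SD, n = 4) in controls. It averaged 10.1 ± 4.65 with HT, 12.4 ± 7.64 with HC and 13.9 ± 1.42 (n = 3) with both. Sox9, which directs cartilage matrix, was at 46.3 ± 8.57, 40.9 ± 22.0, 38.8 ± 12.1 and 37.6 ± 5.37 units in the same order. Alpl, the phosphatase of mineralising cells, was at 2.62 ± 0.763 units in CON, 2.78 ± 0.939 in HT and 6.99 ± 3.83 in HC. HC and CON did not overlap, as for 3.85% of all genes in that direction, with an adjusted p of 0.932 by limma. In HC/HT, Alpl was at 2.12, 12.5 and 2.14 units, the first and last inside the CON range. Id3, another Id gene, averaged 86.2 ± 22.8, 59.3 ± 21.7, 91.6 ± 36.7 and 67.4 ± 25.5 units in that order. Follistatin (Fst), an antagonist of activins that also binds BMPs, was at 10.9 ± 3.35 units in CON and 33.4 ± 22.8 in HC/HT. These did not overlap, as for 6.23% of all genes in that direction, with an adjusted p of 0.357 by limma. Fst was at 42.8, 16.4, 37.3 and 5.69 units in HT and from 10.2 to 19.5 in HC, and both overlapped CON. The highest HC/HT value, in replicate 1, was 59.5. These genes were chosen from the list after their values were seen.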
